A study of Ictidomys tridecemlineatus with 15 samples.

Results

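The kinases that phosphorylate splicing factors were followed through the hibernation cycle in the liver of the 13-lined ground squirrel. The group comprised Clk1, Clk2, Clk3 and Clk4, the SR protein kinases Srpk1 and Srpk2, and the dual-specificity kinases Dyrk1a and Dyrk1b. A transcription unit was taken as a member when its name, split at each colon, contained one of these 8 symbols, with letter case ignored. All 8 symbols were found, in 8 of the 6324 units of the count table. Srpk1, Srpk2, Clk3 and Dyrk1a each had a unit of their own, and the other 4 kinases lay in merged units whose reads also came from neighbouring genes.

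Splicing factors of the SR family carry a domain rich in arginine and serine, the RS domain, and its phosphorylation state sets where these proteins are in the cell and how they bind RNA and each other. SRPK proteins phosphorylate RS domains mainly in the cytoplasm, which promotes import into the nucleus, and CLK proteins phosphorylate them further inside the nucleus and release them from nuclear speckles. The activity of CLK kinases is known to respond to body temperature in mammals. DYRK1A and DYRK1B also phosphorylate splicing factors, along with transcription factors and cell cycle proteins, and DYRK1A acts on RNA polymerase II.

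Nascent transcription was measured by global run-on sequencing (GRO-seq), in which nuclei are isolated and the polymerases found on a gene extend their RNA for a short time with a labelled nucleotide. A read therefore marks a polymerase engaged on a gene and able to extend its RNA, whatever the abundance of the mature RNA. The study proposes that during torpor initiation and termination stop and elongation goes on far more slowly. What part polymerases kept on the genes had in the ET and LT values was not tested. Livers came from laboratory-housed females fitted with temperature loggers, 1 animal per library, in 5 physiological states. SA animals were summer active and warm, before hibernation began. IBA animals were between torpor bouts and had just rewarmed. Ent animals were cooling into torpor. ET and LT animals were cold, early and late in a torpor bout. There were 3 libraries each of SA, IBA, Ent and ET and 2 of LT, replicates 1 and 3. LT replicate 2 was not analysed here.

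Total counts per library ranged from 3713883 to 8884763. The run-on was done on whole liver, and 8 of 14 hepatocyte markers had single-gene units, all with reads in every library. Their summed level was 12298 to 23157 CPM, the read count scaled to library size, in the 6 SA and IBA libraries, 9173 to 11640 in Ent and 3892 to 7396 in the 5 ET and LT libraries. The sum for the endothelial markers Pecam1 and Kdr was 132 to 201 CPM in SA and IBA and 73.8 to 139 in ET and LT, and Sox9, the single cholangiocyte marker with a unit, was at 16.5 to 41 CPM and 7.07 to 18.1 CPM. None of the macrophage, other leukocyte, stellate or erythroid markers had a unit of its own. The hepatocyte sums were lower in every cold library than in any SA, IBA or Ent library, and both other sums were lower in LT than in IBA without overlap. Between SA and IBA and between ET and LT the hepatocyte sums overlapped. The part of these differences in the kinase values was not tested. In bulk liver, fewer cells of a type and less transcription per cell cannot be told apart. Collection season, as given in the study's animal records, also moved with state. It is not summer against winter, since SA animals shared seasons with winter animals. ET animals came from a season of their own, and LT and IBA animals from different seasons. SA and Ent animals came from both the LT and the IBA season. ET and its season cannot be told apart.

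The 4 single-gene units are given first, in coordinates of the HiC_Itri_2 assembly. Clk3 covered chromosome 5 from 115753471 to 115767249 on the plus strand. Srpk1 covered chromosome 8 from 40481316 to 40552567 on the minus strand. Srpk2 covered chromosome 2 from 57417897 to 57551270 on the plus strand, and Dyrk1a chromosome 18 from 32044729 to 32155698 on the plus strand. Each unit spans a gene body, exons and introns together, without the first 500 nt after the start site. Where transcribed segments, merged by the authors over all states, ran past a gene's annotated end, the unit was extended to include them. Whether such reads added to the ET and LT values of the 8 units was not tested.

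The merged units are wider than the kinase they contain. The Clk1 unit also held Ppil3, G32147, Orc2 and Fam126b over 175405 nt of chromosome 6, from 158191940 to 158367344 on the minus strand. The Clk2 unit also held Scamp3, over 17320 nt of chromosome 11 from 25710188 to 25727507 on the minus strand. The Clk4 unit held an annotated 7SK copy on chromosome 1 from 113060361 to 113090728, plus strand. The Dyrk1b unit also held Fbl, the gene of the nucleolar methyltransferase fibrillarin, on chromosome 16 from 13995425 to 14026854, minus strand. What share of the reads of these 4 units belonged to the kinase was not known, and every value given for them is that of the whole unit.

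Per kilobase of unit, the mean level over the 14 libraries was 9.3 CPM per kb for the Clk4 unit, 5.51 for the Clk1 unit and 3.99 for Clk3. It was 3.8 CPM per kb for the Clk2 unit, 3.23 for the Dyrk1b unit and 2.47 for Dyrk1a. The SR protein kinases were the least densely transcribed of the 8, at 1.4 CPM per kb for Srpk1 and 1.02 for Srpk2. Srpk1 and Srpk2 had overlapping ranges per kilobase in SA, IBA and Ent, where Srpk1 had 1.16 ± 0.0838, 1 ± 0.0872 and 1.27 ± 0.177 CPM per kb and Srpk2 0.995 ± 0.123, 0.959 ± 0.0812 and 1.1 ± 0.119 (SD, n = 3 each). In the cold they separated, with Srpk1 at 1.89 ± 0.374 in ET (n = 3) and 1.8 ± 0.0139 in LT (n = 2) against 1.02 ± 0.108 and 1.04 ± 0.148 for Srpk2. Counts per library ranged from 137 for Clk3 to 8868 for the Clk1 unit, so that counting error was largest for Clk3.

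At an adjusted p of 0.05, Srpk1 and the Clk1, Clk4 and Clk3 units were higher in LT than in IBA, and Dyrk1a was lower. Clk2, Srpk2 and Dyrk1b were not past that p. From SA to LT, Clk4 (adjusted p = 0.061) and Dyrk1a (0.085) were not past it either, by edgeR's quasi-likelihood test. In edgeR's quasi-likelihood test, with the Benjamini-Hochberg adjustment taken over the whole table, 0 of 8 members were at an adjusted p of 0.001 or less among the 5 states, where 25.5% of all units were. The adjusted p was 0.0011 for Srpk1, 0.0023 for Dyrk1a, 0.0026 for Clk1, 0.015 for Clk4 and 0.023 for Clk3, so that 5 of 8 were at 0.05 or less (62.5%), close to the 62.0% of all units. Clk3 was not at 0.05 or less without IBA replicate 1 (0.057) or LT replicate 3 (just over 0.05). The same 5 had an unadjusted p of 0.05 or less. The adjusted p was 0.234 for Clk2, 0.724 for Srpk2 and 0.847 for Dyrk1b. The 0.001 call depended on the tool and on the edgeR settings. DESeq2, which the study used, placed 4 of 8 members past it, Srpk1, Dyrk1a, Clk1 and Clk4, where it placed 50.0% of all units, and limma-voom placed 0 of 8 there.

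**Figure D1:**
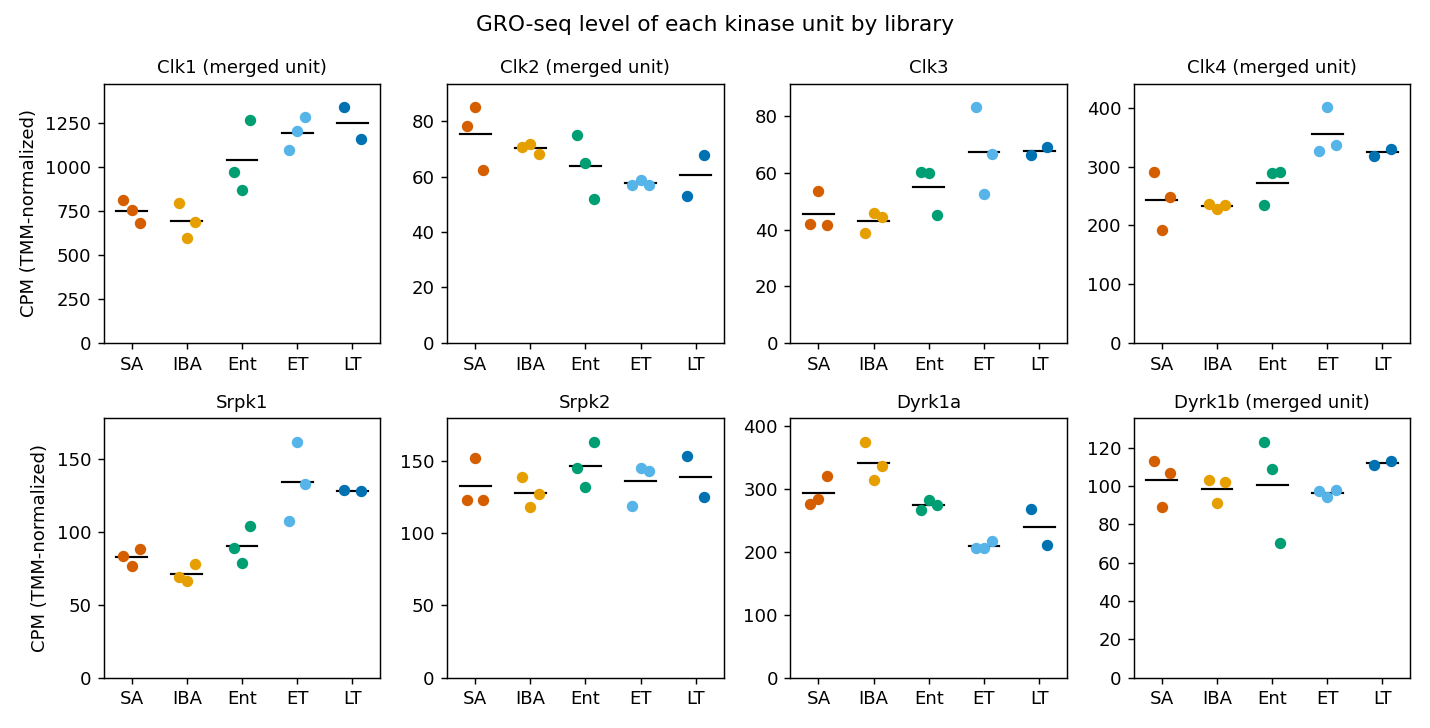
Each point is 1 library and each bar a state mean, in TMM-normalized CPM on an axis from 0, for SA, IBA, Ent, ET and LT (3 libraries each, 2 in LT). Every ET and LT point of the Clk1, Clk4 and Srpk1 units lies above every SA and IBA point, every one of Dyrk1a lies below, and for Clk2, Clk3, Srpk2 and Dyrk1b the 5 ET and LT points overlap the 6 SA and IBA points.

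Among the CLK kinases, the largest difference was in the Clk1 unit. It had 813, 758 and 683 CPM in the 3 SA libraries and 796, 597 and 687 CPM in IBA. In Ent it had 975, 869 and 1271 CPM. In ET it had 1098, 1207 and 1285 CPM, and in LT 1341 and 1162. All 8 Ent, ET and LT libraries were above all 6 warm ones, and the Ent range reached into the torpid range. The IBA libraries averaged 693 ± 99.9 CPM (SD, n = 3) and the LT libraries 1251 ± 126 (n = 2), a log2 difference of 0.85 (SE 0.19) or 1.8-fold. Its adjusted p by edgeR's quasi-likelihood test was 0.0024.

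Clk4, the paralog closest to Clk1, was measured with its 7SK copy. The unit had 291, 192 and 248 CPM in SA, 236, 227 and 234 in IBA, and 235, 289 and 291 in Ent. It had 327, 401 and 336 CPM in ET and 318 and 330 in LT. The cold and warm libraries did not overlap, and the Ent libraries lay within the warm range, which the SA libraries set. From IBA to LT the log2 difference was 0.48 (SE 0.17), with an adjusted p of 0.031 by edgeR's quasi-likelihood test.

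Clk3, a CLK kinase with a unit of its own, was lower in level and more variable. It had 41.9, 53.6 and 41.5 CPM in SA, 38.9, 46 and 44.5 in IBA, and 60.5, 59.9 and 45.1 in Ent. In ET it had 83.2, 52.4 and 66.6 CPM, and in LT 66.5 and 69.2. Both LT libraries were above all SA and IBA libraries, whereas 1 ET library was below the highest SA library. The IBA to LT difference was 0.65 on the log2 scale (SE 0.20), or 1.57-fold, with an adjusted p of 0.019 by edgeR's quasi-likelihood test.

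The Clk2 unit went the other way in sign but not beyond the spread. It had 78.3, 85 and 62.5 CPM in SA, 70.8, 71.7 and 68.3 in IBA, and 75, 64.7 and 52 in Ent. It had 57.1, 58.7 and 57.1 CPM in ET and 53.1 and 67.9 in LT. All 5 cold libraries were below all 3 IBA libraries, but the lowest SA library lay among the cold ones. The IBA to LT difference was -0.22 with a 95% interval of -0.61 to 0.18, and from SA to LT it was -0.31 with an interval of -0.70 to 0.08.

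The SR protein kinases differed from each other. Srpk1, the broadly expressed kinase that loads phosphates onto the RS domain of SRSF1, had 83.6, 76.7 and 88.6 CPM in SA, 69.3, 66.3 and 78.2 in IBA, and 89.2, 78.6 and 104 in Ent. It had 108, 162 and 133 CPM in ET and 129 and 128 in LT. Every cold library was above every warm and every Ent library, and the Ent libraries lay above or among the warm ones. From IBA to LT the log2 difference was 0.85 (SE 0.17), or 1.8-fold, with an adjusted p of 0.0015 by edgeR's quasi-likelihood test.

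Srpk2, its paralog, stayed within one range. It had 123, 152 and 123 CPM in SA, 139, 118 and 127 in IBA, and 145, 132 and 163 in Ent. It had 119, 145 and 143 CPM in ET and 153 and 125 in LT. The 5 states overlapped throughout. The IBA to LT difference was 0.12 with a 95% interval of -0.22 to 0.46, whose upper end lies below the Srpk1 difference of 0.85.

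Dyrk1a, whose dosage is altered in Down syndrome, was the one member lower in LT than in IBA at an adjusted p of 0.05. It had 277, 285 and 321 CPM in SA and 375, 315 and 336 in IBA. It had 267, 283 and 274 CPM in Ent, 207, 206 and 217 in ET and 269 and 211 in LT. IBA and SA overlapped, and every ET and LT library was below every SA and IBA library. Of the Ent libraries, 1 was just below LT replicate 1. From IBA to LT the log2 difference was -0.51 (SE 0.13), a ratio of 0.701, with an adjusted p of 0.0074 by edgeR's quasi-likelihood test.

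The Dyrk1b unit, which also counts fibrillarin, had 113, 88.8 and 107 CPM in SA, 103, 90.9 and 102 in IBA, and 123, 109 and 70.1 in Ent. It had 97.3, 94.5 and 97.7 CPM in ET and 111 and 113 in LT. The highest and the lowest of the 14 values were both Ent libraries, and the other states lay between them. Both LT libraries were above all IBA and ET libraries. From IBA to LT the difference was 0.19 with a 95% interval of -0.24 to 0.62.

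The order of events was read from the 4 steps of the cycle, of which each pair of neighbours shares a state. From SA to IBA, between summer and the rewarmed winter state, 0 of 8 members were past an adjusted p of 0.05 (5.22% of all units) or had an unadjusted p of 0.05 or less by edgeR, and DESeq2 and limma-voom also placed 0 there. The percentage past 0.001 was 0.0158% of all units. The log2 differences of the members ran from -0.22 for Srpk1 to 0.22 for Dyrk1a.

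From IBA to Ent, as body temperature began to drop, 1 of 8 members was past 0.05, against 16.1% of all units, and none past 0.001, where 0.0316% of all units were. That member was the Clk1 unit, with a log2 difference of 0.58 (SE 0.17) and an adjusted p of 0.035 by edgeR's quasi-likelihood test. Srpk1 and Dyrk1a had unadjusted p-values of 0.048 and 0.02 and log2 differences of 0.34 and -0.32. The Clk1 call did not stand without IBA replicate 1, 2 or 3 or without Ent replicate 1 or 3, with adjusted p from just over 0.05 to 0.136. It did not stand with season as a factor (0.67, adjusted p = 0.055) or with the pair alone (0.60, adjusted p = 0.059), both by edgeR.

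From Ent to ET, as the animals reached deep torpor, 2 of 8 members were past 0.05, against 28.8% of all units, and none was past 0.001, where 2.21% of all units were. Srpk1 was higher in ET by 0.57 (SE 0.16, adjusted p = 0.017) and Dyrk1a differed by -0.39 (SE 0.12, adjusted p = 0.029) by edgeR's quasi-likelihood test. The Clk4 unit differed by 0.38, with an unadjusted p of 0.027 and an adjusted p of 0.077. The Srpk1 call was lost without Ent replicate 1 or 2 or ET replicate 2 (adjusted p from 0.052 to 0.065), and that of Dyrk1a without any 1 of the 6 Ent and ET libraries (0.056 to 0.093). With the pair alone neither stood (adjusted p of 0.064 for Srpk1 and 0.053 for Dyrk1a by edgeR), and with mapped-read scaling Dyrk1a did not (-0.27, adjusted p = 0.107).

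From ET to LT, across the torpor bout, no member was past 0.05 and none had an unadjusted p of 0.05 or less, by edgeR, DESeq2 or limma-voom. The share of all units was 0.269% at 0.05 and 0% at 0.001. The member differences ran from -0.13 for Clk4 to 0.22 for Dyrk1b, and the 95% interval of the Clk1 unit was -0.34 to 0.47 and that of Srpk1 -0.44 to 0.31.

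Over the whole bout, from IBA to LT, 5 of 8 members were past 0.05, against 49.8% of all units. The 4 higher ones were Clk1, Clk3, Clk4 and Srpk1, against 24.8% of all units, and Dyrk1a was the 1 lower one, against 25.0%. At 0.001 there were 0 of 8 members and 17.4% of all units. DESeq2 placed 2 of 8 members past 0.001, the Clk1 unit and Srpk1, against 31.9% of all units, and limma-voom 0. Clk1 and Srpk1 were past 0.05 in each of the 14 fits that left out 1 library. Clk3 was not without IBA replicate 1, LT replicate 1 or LT replicate 3 (adjusted p from 0.062 to 0.083), Clk4 not without any 1 of the 5 IBA and LT libraries (0.062 to 0.123) and Dyrk1a not without LT replicate 3 (0.101). IBA and LT animals came from different seasons. With season as a factor, for which SA and Ent carry the information, Clk1 (SE 0.26, adjusted p = 0.011) and Srpk1 (SE 0.24, adjusted p = 0.0076) each differed by 1 log2 unit by edgeR's quasi-likelihood test. In the same fit Clk3 was at 0.52 (0.188), Clk4 at 0.36 (0.254) and Dyrk1a at -0.45 (0.085), no longer past 0.05.

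From SA to LT, a comparison that shares its LT libraries with the one above, 3 of 8 members were past 0.05, against 49.2% of all units, and 0 were past 0.001, against 15.7% of all units. These were Clk1 at 0.74, Clk3 at 0.57 and Srpk1 at 0.63, with adjusted p of 0.006, 0.034 and 0.0094 by edgeR's quasi-likelihood test. DESeq2 placed 1 of 8 past 0.001, the Clk1 unit, against 31.4% of all units. The calls of Clk1 and Srpk1 did not stand without LT replicate 1 (0.06 and 0.052), and that of Clk3 did not stand without SA replicate 1 or 3 or either LT library (0.087 to 0.127), nor with the replicate number (0.59, adjusted p = 0.051) or season (0.49, adjusted p = 0.152) as a factor or with the pair alone (adjusted p = 0.053, all by edgeR).

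**Figure D2:**
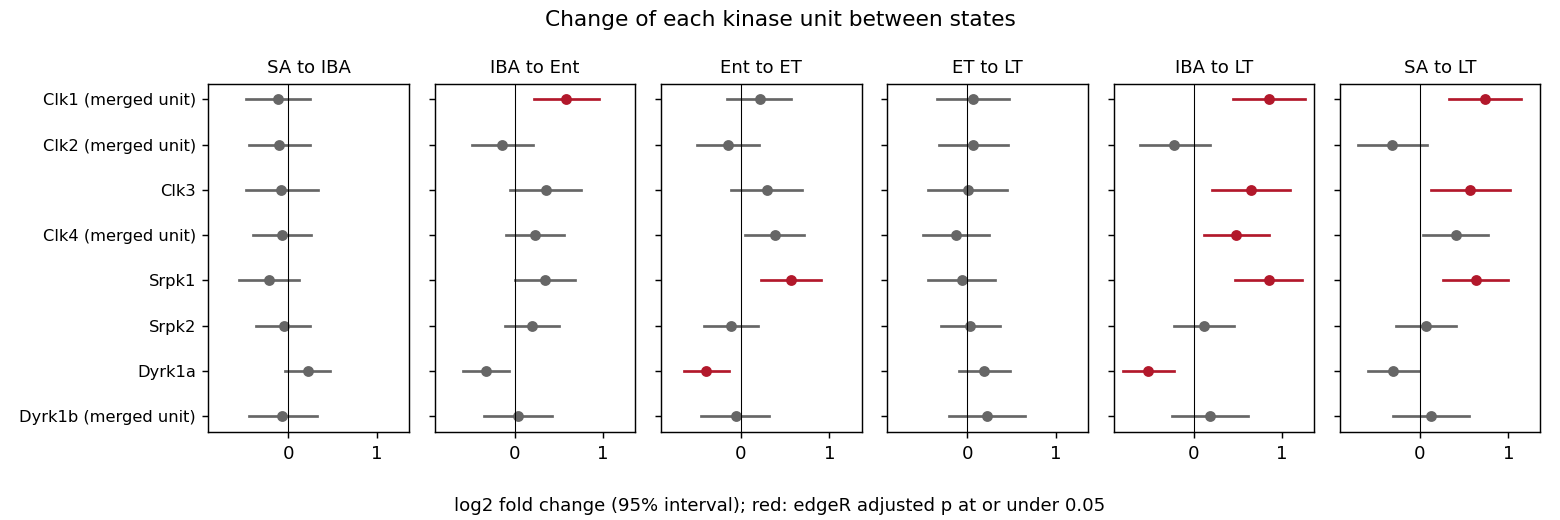
Points are edgeR log2 fold changes of the 8 units for 6 pairs of states, with 95% intervals as lines, and red marks an adjusted p of 0.05 or less. From SA to IBA and from ET to LT every interval crosses 0, whereas from IBA to LT Clk1 (0.85), Srpk1 (0.85), Clk3 (0.65) and Clk4 (0.48) lie to the right and Dyrk1a (-0.51) to the left.

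For the 5 members past 0.05 from IBA to LT, the mean Ent level lay between the IBA and LT means, although the Clk1 unit alone was past 0.05 from IBA to Ent. On mean log2 CPM, the Ent minus IBA difference was 66.9% of the LT minus IBA difference for the Clk1 unit, 60.6% for Dyrk1a, 52.4% for Clk3, 46.2% for Clk4 and 39.7% for Srpk1. Ent and LT are set against the same IBA libraries, and these percentages carry no test. As a group the 8 members had a median IBA to LT log2 difference of 0.34, with 6 of 8 above 0, beside a median of -0.05 and 47.8% above 0 for all units. At the single steps the member medians were -0.07 (SA to IBA), 0.21 (IBA to Ent), 0.07 (Ent to ET) and 0.05 (ET to LT).

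By the separation of single libraries, 3 of 8 members had all 5 cold libraries above all 6 SA and IBA libraries, against 21.1% of all units. These were the Clk1 and Clk4 units and Srpk1. For 1 of 8, Dyrk1a, all cold libraries were below, against 19.5% of all units.

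Library scaling cannot show whether transcription as a whole changed, and with libraries scaled to their mapped reads the median IBA to LT difference of all units moved from -0.05 to 0.136. Under that scaling Srpk1 and Clk1 each differed by 1.03 and Dyrk1a by -0.33 with an adjusted p of 0.057 by edgeR's quasi-likelihood test. Clk1, Clk3, Clk4 and Srpk1 stayed past 0.05 and Dyrk1a did not. The share of all units past 0.05 in each direction under that scaling is not given here. The 4 single-gene kinases were therefore also compared with each other inside each library, as log2 ratios of counts, which no scaling affects. These ratios were chosen after the counts had been seen and are given as a description, with no test.

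Srpk1 and Dyrk1a separated the most. Their log2 ratio was -1.73, -1.89 and -1.86 in SA, -2.44, -2.25 and -2.10 in IBA and -1.58, -1.85 and -1.40 in Ent. It was -0.93, -0.35 and -0.70 in ET and -1.06 and -0.72 in LT. All 5 cold libraries were above all 9 others. Against SA and IBA this follows from the separation of both units given above. The mean cold ratio was higher than the mean of the 6 SA and IBA libraries by 1.29, or 2.45-fold.

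The ratio of the paralogs Srpk1 and Srpk2 behaved likewise. It was -0.56, -0.98 and -0.48 in SA, -1.01, -0.83 and -0.70 in IBA and -0.70, -0.74 and -0.65 in Ent, against -0.14, 0.16 and -0.10 in ET and -0.24 and 0.03 in LT. The Ent libraries lay among the warm ones, and the cold libraries stood above both. The cold mean was higher by 0.70, or 1.62-fold.

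Of the other 4 ratios, Clk3 to Dyrk1a was higher in the cold by 1.12 and Srpk2 to Dyrk1a by 0.59, and in both the cold and warm libraries did not overlap. Clk3 to Srpk2 was higher by 0.53, with overlap, since the lowest cold value was -1.47 and the highest warm value -1.36. Clk3 to Srpk1 differed by -0.17, and its cold values, from -1.62 to -0.38, spanned the warm ones, from -1.10 to -0.52. The ratios to Dyrk1a share its counts, and the share of all pairs of units that separate in this way was not computed. Season cannot be told apart from state in the ET libraries of these ratios.

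**Figure D3:**
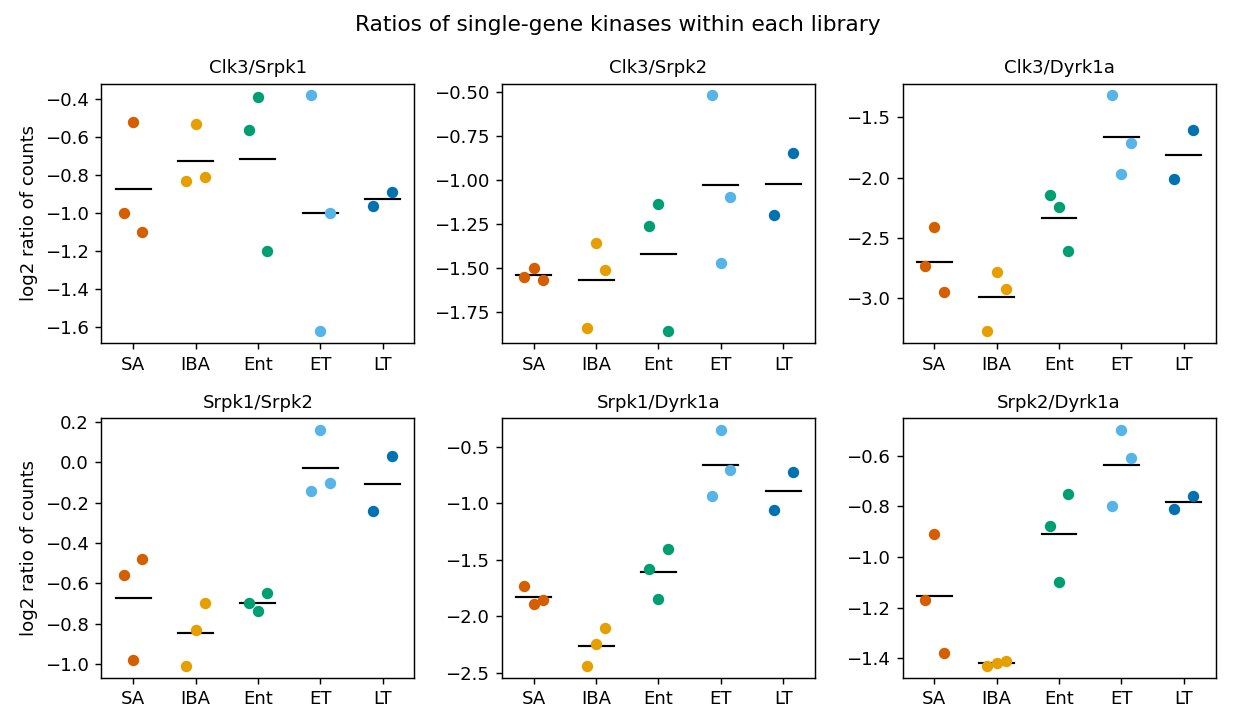
Each point is the log2 ratio of 2 kinases' counts in 1 library and each bar a state mean, for the 6 pairs of single-gene members, and the vertical axes differ in range and do not start at 0. ET and LT lie above SA and IBA for Srpk1/Dyrk1a, Clk3/Dyrk1a, Srpk1/Srpk2 and Srpk2/Dyrk1a, and the states overlap for Clk3/Srpk1 and Clk3/Srpk2.

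Reads that run past the end of an upstream gene can reach the next gene on the same strand. The nearest upstream units were therefore read as well, and their part in the kinase values was not tested. Only units of the count table were searched, so a gene without a unit could lie nearer. The Clk2 unit lay 5.41 kb from Pklr, the liver pyruvate kinase, whose unit differed by -1.14 from IBA to LT (adjusted p = 0.022 by edgeR's quasi-likelihood test). Clk3 lay 16 kb from Arid3b, which differed by -0.50 (adjusted p = 0.227). The upstream units of the others were 182 kb or more away, measured from the edge of the whole unit. Genes joined with a kinase in a merged unit lie nearer, and whether they are upstream of it was not read. That of Dyrk1a was Ttc3, at -0.75 (adjusted p = 0.0065), and that of Srpk1 was a unit with Stk38, at 0.14 (adjusted p = 0.379). The Clk1 unit was 314 kb from Trak2, at -0.60 (adjusted p = 0.032), and Srpk2 254 kb from Atxn7l1, at -0.51 (adjusted p = 0.106). The Clk4 unit was 527 kb from Atox1, a copper chaperone gene that rose by 1.52 (adjusted p = 0.00024). The Dyrk1b unit was 187 kb from a unit with Akt2, at 0.30 (adjusted p = 0.128).

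Downstream on the same strand, values went in both directions too. Ets2, beyond Dyrk1a, differed by 1.41 (adjusted p = 0.0058) and Phykpl, beyond Clk4, by -1.47 (adjusted p = 0.0013 by edgeR's quasi-likelihood test). The units downstream of Clk1, Clk2, Clk3, Srpk1, Srpk2 and Dyrk1b were not past 0.05, and their differences ran from -1.64 for CYP1A2 beyond Clk3 to 0.19 for a unit with Fkbp5 beyond Srpk1.

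Many genes of the kinases' substrates rose from IBA to LT. Of 40 genes of RS-domain proteins, 19 had a single-gene unit, of which 11 rose from IBA to LT past 0.001 and 0 fell. At 0.05 the counts were 14 and 0, and the median log2 difference was 0.81, with a range from -0.40 to 2.15. Of all 6324 units, 613 rose and 489 fell past 0.001, and 1568 rose and 1583 fell past 0.05. The 3 units of this list with the largest rise were Srsf7, Tra2b and Srsf6, all of them regulators of alternative splicing. Srsf7 went from 35 ± 4.47 CPM (IBA, SD, n = 3) to 156 ± 53.3 (LT, n = 2), a log2 difference of 2.15 (SE 0.23, adjusted p = 2.3e-05 by edgeR's quasi-likelihood test). Tra2b went from 244 ± 13.3 to 1035 ± 130 CPM, by 2.09, and Srsf6 from 95.7 ± 3.61 to 283 ± 18.7 CPM, by 1.56. Each of the 3, picked for the largest rise in the list, had a larger log2 difference than any of the 8 kinase units, a comparison without a test. This list too was drawn up with earlier results of these data known. A further 14 of the 40 symbols lay in merged units, of which 4 rose past 0.001 and 0 fell.

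The phosphatases that act against such kinases gave 5 single-gene units from 14 symbols. Ppp2r1a, the scaffold subunit of PP2A, rose from 81.2 ± 3.94 to 150 ± 9.19 CPM, by 0.88 (SE 0.16, adjusted p = 0.00077 by edgeR's quasi-likelihood test). It was the only one of the 5 past 0.001. Ppp1cc, a catalytic subunit of PP1, differed by 0.64 (adjusted p = 0.0083), and the median of the 5 was 0.39. With season as a factor Ppp2r1a was at 0.80 (adjusted p = 0.02), no longer past 0.001. Of the 6 merged phosphatase units, 1 rose and 1 fell past 0.001.

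Kinases of the same CMGC family that are not members had 5 single-gene units from 20 symbols, none past 0.001, with a median of -0.22. Hipk1 was higher in LT by 0.51 (adjusted p = 0.0067) and Hipk2 differed by -0.87 (adjusted p = 0.0048 by edgeR's quasi-likelihood test), while Gsk3b was at 0.05, Csnk2a1 at -0.22 and Mapk14 at -0.27. Of their 9 merged units, 1 rose past 0.001 and 0 fell.

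The list of SR protein import factors and DYRK1A partners had 6 single-gene units from 16 symbols, with a median of 0.49, and none was past 0.001. Tnpo3, the importin of phosphorylated SR proteins, differed by 0.06 (adjusted p = 0.77), and Tnpo1, another importin, by 0.55 (adjusted p = 0.013 by edgeR's quasi-likelihood test). Lin52, the DREAM complex subunit that DYRK1A phosphorylates, differed by 0.87 (adjusted p = 0.0026). Foxo1, a fasting-responsive transcription factor and DYRK1A substrate, differed by 1.75 (SE 0.35, adjusted p = 0.0015). Of the 3 merged units of this list, 1 rose past 0.001.

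Over the 4 lists, 12 single-gene units were past 0.001 from IBA to LT, where 17.4% of all units were. They were 11 of 19 RS-domain units and 1 of 5 phosphatase units. None came from the 5 related kinases or the 6 units of import factors and DYRK1A partners. The total over the 4 lists was 5 with season as a factor, and 6 or 7 without any 1 of the 5 IBA and LT libraries.

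**Figure D4:**
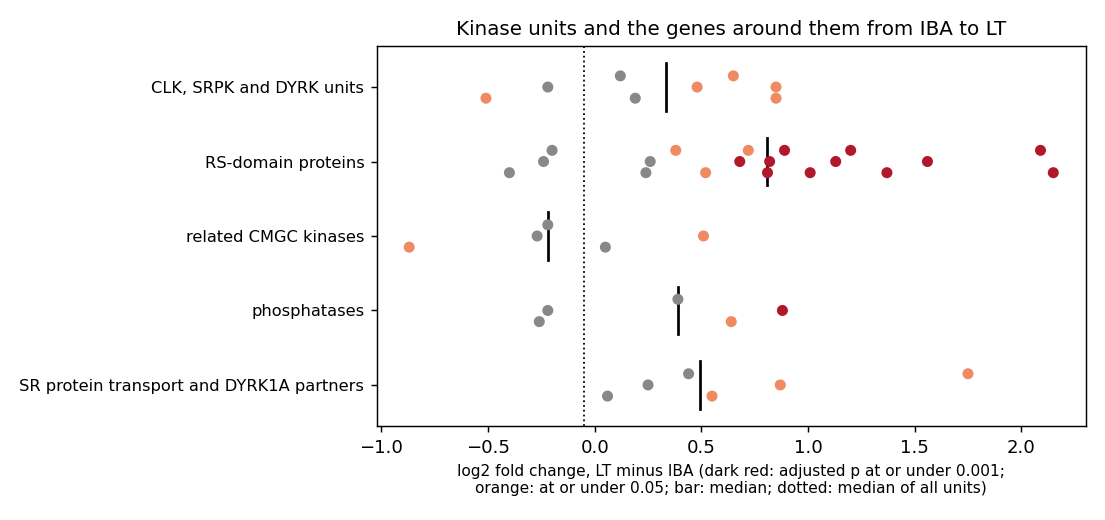
Each point is the edgeR log2 fold change from IBA to LT of 1 unit, for the 8 kinase units and the single-gene units of 4 lists, with bars at the list medians and a dotted line at the median of all units (-0.05). The RS-domain proteins have the highest median (0.81, with 11 of 19 in dark red, past an adjusted p of 0.001), the kinases lie at 0.34 with none in dark red, and the related kinases at -0.22.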

How the data were processed

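GRO-seq libraries were made from nuclei of frozen liver of 14 female squirrels, each animal its own library. The authors trimmed reads with cutadapt, aligned them with BWA to HiC_Itri_2, redrew gene bodies from fstitch segments, removed the first 500 nt after the start site, joined overlapping genes under one name and counted reads with featureCounts. The deposited values are raw counts per unit, and unit length was taken from the same table. Joining genes gives a merged unit the sum of its genes.

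Counts were TMM-normalized and fitted with edgeR 4.0.16 (R 4.3.3, legacy quasi-likelihood, all 14 libraries, no covariate, no filter). States were tested together and in 6 pairs, with Benjamini-Hochberg adjustment over all 6324 units and a threshold of 0.001, which the study applied with DESeq2. The threshold of 0.05 was an alternative, and 95% intervals are those of single units, unadjusted. For log2 CPM the prior count was 2. The replicate numbers of the labels were not taken as pairs in the main fit. As alternatives, the counts were fitted with limma-voom (limma 3.58.1), with DESeq2 1.42.0 and with adjusted deviances in edgeR, and with RLE, upper-quartile and mapped-read scaling, a minimum of 10 counts, the pair alone, the replicate number or season as a factor, and each library left out. Ratios within libraries carry no test in the text. Summaries and plots used scipy 1.17.1 under Python 3.11.15, with numpy 2.4.6, pandas 2.3.3 and matplotlib 3.10.9. The edgeR, DESeq2 and limma-voom fits were tested on simulated counts with changes placed in LT, read from IBA to LT.

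Named genes are the members, genes merged with them, nearest same-strand neighbours, and per list up to 3 units with the largest rise and fall past 0.001, from IBA to LT. Other list genes and markers named were chosen after their values were seen. The members and lists were chosen with earlier results of these data known. Season came from the animal records of the study. List members were matched by symbol in the table. Neighbours were sought among the units of the count table, by position on the same chromosome and strand, leaving out the 50 units with several segments. Sequences were not used here.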

Additional observations from a re-analysis of the deposited data

How the results depend on the processing

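At 0.001 no kinase passed in the main edgeR fit. With an adjusted p of 0.05 the counts were 5 among the 5 states, 1 (IBA to Ent), 2 (Ent to ET), 5 (IBA to LT) and 3 (SA to LT), and 21 list units. DESeq2 placed 4 members past 0.001 among the states, 2 from IBA to LT and 1 from SA to LT, mapped-read scaling 2 among the states and 2 from IBA to LT, and adjusted deviances and RLE 1 each among the states. Without 1 library, members past 0.001 were 0 to 1 among the states (1 without Ent replicate 3 or ET replicate 1) and 0 to 1 from IBA to LT (1 without ET replicate 1 or 2), and list units 6 to 13. List units numbered 5 with season as a factor. With the replicate block, 4 members were past 0.05 from IBA to LT, without Clk4 (0.47, adjusted p = 0.06), 0 were past 0.001 and list units were 9. The same-numbered pairs of deviations had r from -0.263 to 0.234 (26 pairs), and the other 52 pairs from -0.345 to 0.382. No pairing was seen, but deviations taken within states of 2 or 3 libraries cannot exclude one. The cause of these shifts was not tested.

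Signs that turned were all of differences not past 0.05. With mapped-read scaling these were, from ET to LT, Clk1 (-0.02), Clk2 (-0.01), Clk3 (-0.06) and Srpk2 (-0.05), Clk2 in the IBA to Ent step (0.01), and Srpk2 (0.01) and Dyrk1b (0.06) in the Ent to ET step. With upper-quartile normalization they were Clk3 (-0.02) and Srpk2 (-0.005) from ET to LT, and with limma-voom Dyrk1b from IBA to Ent (-0.0007). With season as a factor Dyrk1b was at 0.09 (SA to IBA), -0.31 (IBA to Ent), -0.27 (IBA to LT) and -0.19 (SA to LT). Without 1 library the ET to LT difference ran from -0.04 to 0.16 for Clk1, -0.12 to 0.24 for Clk2, -0.14 to 0.19 for Clk3, -0.20 to 0.09 for Srpk1 and -0.12 to 0.17 for Srpk2. From SA to IBA it ran from -0.14 to 0.05 for Clk3, -0.22 to 0.07 for Clk4, -0.12 to 0.05 for Srpk2 and -0.16 to 0.002 for Dyrk1b. Srpk2 ran from -0.03 to 0.26 (IBA to LT) and -0.09 to 0.20 (SA to LT), and Dyrk1b from -0.14 to 0.24 (IBA to Ent) and -0.27 to 0.11 (Ent to ET). LT rests on 2 libraries, merged units mix genes, and season and ET cannot be told apart.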

Other observations

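None of the kinases passed 0.001 among the 5 states in the main fit, so the rule for genes of like pattern named no gene. The genes below were listed for the 5 members past 0.05, a choice made after the values were seen, and Pearson's r is over the log2 CPM of the same 14 libraries, which share their scaling. The single-gene units most like the Clk1 unit were Derl1 (r = 0.95), Gpn1 (0.95) and Mapk9 (0.94). For Srpk1 they were Anxa7, Bora and Fam76b, each at 0.96. For Clk3 they were Znf787 at 0.98 and Ddx54 and Tubgcp3 at 0.96, and for Clk4 Trim23 and LOC110598472 at 0.96 and Acsl3 at 0.95. Dyrk1a was most like Spata13 (0.95), CYP2B7P_containing (0.95) and Ccdc90b (0.94), all of which were lower in LT than in IBA, by -1.06, -2.80 and -1.35 on the log2 scale.

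Between members, r over the 14 libraries was 0.86 for Srpk1 with each of the Clk1 and Clk4 units and 0.77 for Clk1 with Clk4. Dyrk1a had r of -0.83 with Srpk1, -0.77 with Clk3 and with Clk4, and -0.74 with Clk1. Dyrk1b with Srpk1 was at -0.01, and Srpk1 with Srpk2 at 0.32. These are descriptions, with the 5 states mixed.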
